A study of Mus musculus with 12 samples.

Results

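The genes studied here encode the eukaryotic translation initiation factors (eIFs). Members were the rows of the count table whose symbol starts with Eif followed by a digit from 1 to 6, leaving out the Eif2ak genes, which encode kinases that phosphorylate eIF2, and symbols with -ps, which mark pseudogenes. Of 64 such symbols, 4 Eif2ak genes and 8 pseudogenes were left out, so that 52 of 53465 genes were members: 5 of the eIF1 group, 12 of eIF2, 14 of eIF3, 16 of eIF4, 4 of eIF5 and 1 of eIF6. Of these, 47 passed the filter on low counts and were tested among 19830 genes. The 5 untested members were Eif2c5, annotated as a lincRNA, Eif2s3y, Eif3j2, Eif4e1b and Eif4ebp3.

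Initiation factors load the small ribosomal subunit with the initiator tRNA, bring it to the capped end of an mRNA and let it scan to a start codon. eIF2 carries the initiator tRNA and is recharged with GTP by eIF2B, eIF3 is a many-subunit scaffold on the small subunit, and the eIF4 proteins bind the cap and unwind the mRNA. Phosphorylation of eIF2 and binding of eIF4E by the 4E-BPs are the best known brakes on the process, and hematopoietic stem cells are known for a low rate of protein synthesis.

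The RNA came from mouse hematopoietic stem cells (HSCs) sorted from bone marrow and cultured over 2 days in Stemline II to which SCF (100 ng/ml) and Flt3 (2 ng/ml) were added. The 4 groups of 3 samples were long-term HSCs (LT-HSCs, sorted as CD34-, CD48- and CD150+ cells within the Lin-ckit+sca1+ fraction) with 1 mM nicotinamide riboside (NR), LT-HSCs in control culture, short-term HSCs (ST-HSCs, the same surface markers but CD34+) with 1 mM NR, and ST-HSCs in control culture. NR, which is a vitamin B3 compound and a source of NAD for cells, was given again after 24 h. Mouse strain, age and sex are not in the labels, nor whether the samples of a group came from separate mice or cultures, so p-values reflect only how far these samples spread, and that spread may be technical.

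Each library held 24589718 to 35456821 counts in genes. The third LT NR and the third ST NR library stood apart, with 28.6% and 26.2% of their reads in no annotated feature, against at most 17.0% in the other libraries, and with more genes detected (39290 and 38799) than any other library. In CPM, counts scaled by the effective library size, Kit ran from 1340 to 1720 over the 12 libraries, Cd34 averaged 259 in LT control and 627 in ST control libraries, and Cd48 stayed at or below 6.25. Ly6a, which encodes the sort marker Sca1, averaged 32.7 in LT NR and 37.6 in LT control libraries, and was low in ST-HSCs, at 8.04 in ST NR and 6.24 in ST control libraries.

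All 10 tested eIF2 genes, all 13 tested eIF3 genes and 13 of 14 tested eIF4 genes had a negative estimated change with NR in LT-HSCs, and so did the same numbers in ST-HSCs, where those of Eif2d and Eif4e3 turned positive under the other library scalings. Over all tested genes the share with a negative estimate was 45.5% in LT-HSCs and 52.8% in ST-HSCs. In LT-HSCs 24 of 47 members fell and 0 rose (edgeR, adjusted p under 0.05 over all genes), against 7.58% of all tested genes called lower and 2.38% called higher. In ST-HSCs 23 members fell and 0 rose, against 11.1% of all tested genes called lower and 5.82% called higher. The same 22 members fell in both cell types, which is 91.7% of those in LT-HSCs and 95.7% of those in ST-HSCs. The same share over all genes called lower is not given here, so this overlap is not read as particular to the members. Eif3m and Eif4a3 passed the test in LT-HSCs but not in ST-HSCs, and Eif4g2 in ST-HSCs but not in LT-HSCs. The median log2 change was -0.25 over the members and 0.04 over all tested genes in LT-HSCs, and -0.22 over the members and -0.03 over all tested genes in ST-HSCs.

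**Figure D1:**
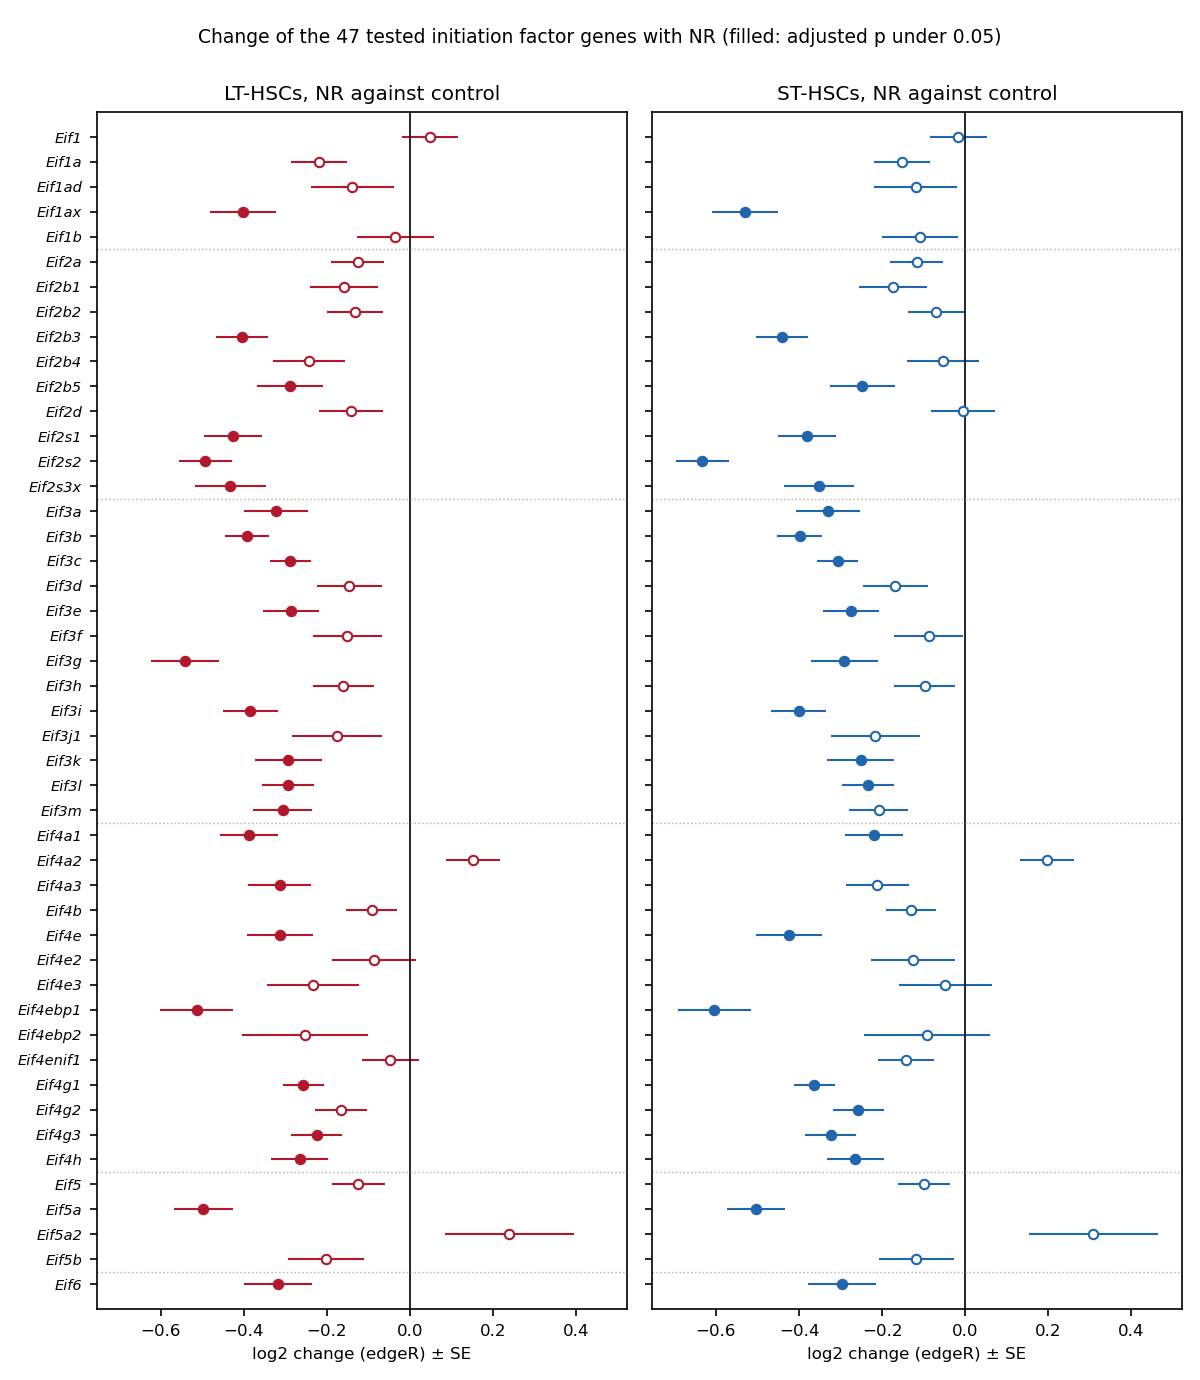
Log2 change with NR against control (x axis, edgeR estimate ± SE) of the 47 tested members (rows) in LT-HSCs (left) and ST-HSCs (right), with filled points for adjusted p under 0.05. All but 3 points in LT-HSCs and all but 2 in ST-HSCs lie left of 0, and Eif4a2 and Eif5a2 lie right of it in both, while Eif1, Eif2d and Eif4e3 turn positive in ST-HSCs under the other scalings.

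Members are well expressed genes, with at least 497 counts in every library for each tested one. Among genes with a mean of at least 5 CPM, tested alone, 23 members were called lower in LT-HSCs, against 15.3% of these genes, and 24 in ST-HSCs, against 19.3%. Under that filter Eif4a2 was also called higher in each cell type, against 12% and 19.1%. For 31 members the 3 NR libraries all lay below the 3 control libraries in LT-HSCs, against 15.9% of all tested genes, and for 31 members in ST-HSCs, against 20.9%. Averaged over both cell types, 26 members fell and Eif4a2 alone rose, against 16.1% of all tested genes called lower and 7.88% called higher.

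Some calls depended on single libraries. In LT-HSCs 10 of the 24 kept their call with each of the 6 libraries left out in turn (Eif1ax, Eif2b3, Eif2s1, Eif2s2, Eif3b, Eif3g, Eif3i, Eif4a1, Eif4ebp1 and Eif5a), and 14 were called lower without the third LT NR library or without the second LT control library. Over all genes 943 and 835 were called lower in these fits, against 1503 with all libraries. In ST-HSCs 12 of the 23 kept their call (Eif1ax, Eif2b3, Eif2s1, Eif2s2, Eif3b, Eif3c, Eif3i, Eif4e, Eif4ebp1, Eif4g1, Eif4g3 and Eif5a), and 12 were called lower without the third ST NR library. That fit called 1010 of all tested genes lower, against 2193 with all libraries. How many of all called genes kept their call with each library left out is not given here. The members therefore cannot be set against other called genes on this point. Without both libraries that stood apart, 11 members were called lower in LT-HSCs and 12 of the ST-HSC calls held, while 24 of 26 kept their call in the averaged comparison. Of all tested genes, 877 were then called lower in LT-HSCs, 1229 in ST-HSCs and 2102 in the averaged comparison, against 1503, 2193 and 3189. Relative log expression (RLE) scaling in place of the trimmed mean of M values (TMM) left 22 members called lower in LT-HSCs and 15 in ST-HSCs, where Eif2b5, Eif2s3x, Eif3g, Eif3k, Eif3l, Eif4a1, Eif4g2 and Eif6 lost their call, and moved the members' median up by 0.05 and 0.07 on the log2 scale. Without a filter on low counts 13 calls were lost in each cell type: those of Eif2b5, Eif3a, Eif3c, Eif3e, Eif3k, Eif3l, Eif4g3, Eif4h and Eif6 in both, those of Eif3m, Eif4a3, Eif4e and Eif4g1 in LT-HSCs, and those of Eif2s3x, Eif3g, Eif4a1 and Eif4g2 in ST-HSCs. That fit called 944 of 46386 genes lower in LT-HSCs and 1321 in ST-HSCs. RLE scaling also moved the balance over all genes, with 712 called higher and 1192 lower in LT-HSCs, against 472 and 1503 under TMM, and with 1662 higher and 1552 lower in ST-HSCs, against 1155 and 2193. In bulk RNA, fewer cells of a type and less RNA per cell cannot be told apart.

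Marker genes of cell types are given beside the shares of all tested genes. With NR, 7.58% were called lower and 2.38% higher in LT-HSCs, and 11.1% and 5.82% in ST-HSCs. Of 5 megakaryocyte genes, 3 fell with NR in each cell type, and their summed level was 1760 to 2410 CPM in LT NR and 2920 to 3350 in LT control libraries, and 1620 to 2140 in ST NR and 2850 to 3150 in ST control libraries. Most of this sum came from Pf4 and Itga2b. Ppbp did not fall, averaging 76.5 CPM in LT NR and 69.5 in LT control libraries. It averaged 67.3 CPM in ST NR and 58.0 in ST control libraries. The part of the megakaryocyte genes in the result was not tested. The 6 erythroid genes summed to 44.1 to 49.1 CPM in LT NR and 47.1 to 58.0 in LT control libraries, and to 14.9 to 20.4 in ST NR and 16.7 to 21.6 in ST control libraries, mostly from Hbb-bt, while Hba-a1 was at 0 in at least 1 library. The 4 B cell genes summed to at most 3.77 CPM, the 4 T cell genes to at most 3.74 and the 4 mast cell genes to at most 20.7 in any library, and none of the tested genes of these lists or of the erythroid list was called with NR. Of 6 stroma and endothelium genes 0 were called in LT-HSCs and 1 fell in ST-HSCs, and their summed level was 83.5 to 95.7 CPM in LT NR and 96.1 to 104 in LT control libraries, and 107 to 114 in ST NR and 104 to 116 in ST control libraries. Of 11 stem and progenitor cell genes 0 were called with NR in LT-HSCs, and 2 rose and 1 fell with NR in ST-HSCs. Of 8 granulocyte and monocyte genes 1 rose in each cell type and 0 fell, and their summed level ran from 31.3 to 133 CPM in LT NR and from 54.5 to 93.6 in LT control libraries, and from 38.9 to 107 in ST NR and from 41.3 to 87.4 in ST control libraries.

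Summed over all members, the level was 10770, 11280 and 9830 CPM in the LT NR libraries, against 12740, 13340 and 12570 CPM in the LT control libraries. The sums were 11480, 11520 and 10710 CPM in the ST NR libraries, against 13830, 13480 and 13610 CPM in the ST control libraries. The NR libraries lay below every control library of their cell type, and the percent difference of the means, NR against control, was -17.5 in LT-HSCs and -17.6 in ST-HSCs. As a share of the gene counts, with no scaling, members made up 1.103% ± 0.022 in LT NR and 1.255% ± 0.019 in LT control libraries, and 1.155% ± 0.017 in ST NR and 1.303% ± 0.0075 in ST control libraries (SD, n = 3 each). For the summed CPM of each group, the percent difference of the means was -18.9% for eIF2, -19.6% for eIF3 and -14.4% for eIF4 in LT-HSCs, and -17.2%, -17.9% and -15.7% in ST-HSCs. The eIF5 sum, in which Eif5a has most of the counts, differed by -24.9% in LT-HSCs and by -24.5% in ST-HSCs.

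**Figure D2:**
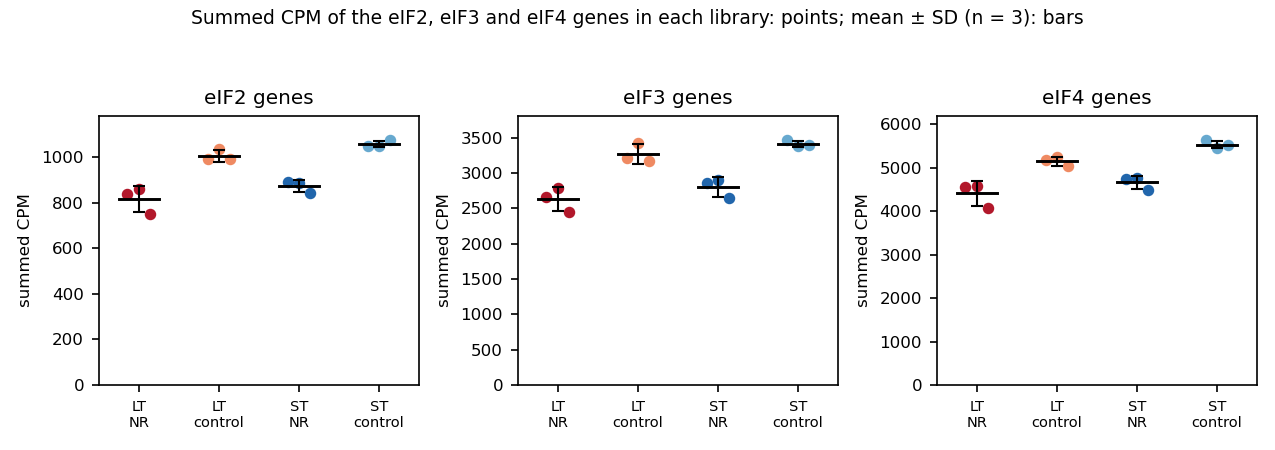
Summed CPM (y axis, from 0) of the eIF2, eIF3 and eIF4 genes in each library (points) with the mean ± SD of the 3 libraries of a group (bars). In each panel the NR libraries of a cell type lie below its control libraries.

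The 3 eIF2 subunits all fell in both cell types. Of the 10 tested eIF2 genes, 5 fell in LT-HSCs (median log2 change -0.27) and 5 in ST-HSCs (median -0.21). Those 5 were the same: the genes of the alpha, beta and gamma subunits of eIF2 and the genes of 2 of the 5 eIF2B subunits, Eif2b3 and Eif2b5.

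Eif2s1 encodes eIF2 alpha, the subunit that stress kinases phosphorylate. It had 201, 204 and 170.2 CPM in the LT NR libraries, against 255, 267 and 250.5 CPM in the LT control libraries. In ST-HSCs it had 210.3, 212 and 198 CPM in the ST NR libraries, against 266, 262 and 279 CPM in the ST control libraries. The groups did not overlap in either cell type, and Eif2s1 fell by 0.43 ± 0.07 (SE, adjusted p = 0.00229) on the log2 scale in LT-HSCs and by 0.38 ± 0.07 (SE, adjusted p = 0.00223) in ST-HSCs (edgeR). Eif2s2, the gene of eIF2 beta (ENSMUSG00000074656, GRCm38 chr2:154871410-154892935, minus strand), had 92.7, 94.0 and 86.8 CPM in the LT NR libraries, against 125, 138 and 122 CPM in the LT control libraries. Its values were 92.9, 94.9 and 95.8 CPM in the ST NR libraries, against 145, 143 and 152 CPM in the ST control libraries. No NR library came near a control library of its cell type, and Eif2s2 had the smallest p of all members in both comparisons, with a fall of 0.49 ± 0.06 (SE, adjusted p = 0.000592) in LT-HSCs and of 0.63 ± 0.06 (SE, adjusted p = 3.5e-05) in ST-HSCs (log2, edgeR). For Eif2s3x, which encodes the gamma subunit that binds GTP and the initiator tRNA, there were 21.8, 17.9 and 19.1 CPM in the LT NR libraries, against 26.7, 26.7 and 25.8 CPM in the LT control libraries. In ST-HSCs the values were 22.8, 21.8 and 22.2 CPM in the ST NR libraries, against 29.1, 28.5 and 27.7 CPM in the ST control libraries. Again the groups did not overlap, and the log2 change was -0.43 ± 0.09 (SE, adjusted p = 0.00635) in LT-HSCs and -0.35 ± 0.08 (SE, adjusted p = 0.0117) in ST-HSCs (edgeR), with the call lost without the second LT NR or the third ST NR library. Its copy on the Y chromosome, Eif2s3y, had 0 counts in all 12 libraries, where a count of 0 allows up to 3 counts per library.

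eIF2B is the exchange factor that reloads eIF2 with GTP and is blocked by phosphorylated eIF2. Its gamma subunit gene Eif2b3 had 41.9, 40.6 and 42.4 CPM in the LT NR libraries, against 54.7, 53.9 and 56.8 CPM in the LT control libraries. In ST-HSCs Eif2b3 had 42.0, 43.9 and 41.5 CPM in the ST NR libraries, against 56.4, 57.7 and 58.8 CPM in the ST control libraries. The NR and control libraries formed separate ranges, and Eif2b3 fell by 0.40 ± 0.06 (SE, adjusted p = 0.00176) in LT-HSCs and by 0.44 ± 0.06 (SE, adjusted p = 0.000445) in ST-HSCs (log2, edgeR). Eif2b5, the gene of the catalytic epsilon subunit, had 120.3, 118 and 98.8 CPM in the LT NR libraries, against 128, 144.5 and 139 CPM in the LT control libraries. Its ST-HSC values were 121, 125 and 115 CPM in the ST NR libraries, against 142, 139.8 and 147 CPM in the ST control libraries. These groups did not overlap either, and the log2 changes were -0.29 ± 0.08 (SE, adjusted p = 0.0347) in LT-HSCs and -0.25 ± 0.08 (SE, adjusted p = 0.0473) in ST-HSCs (edgeR). The Eif2b5 call was lost without the second or the third library of either LT NR or LT control, and in ST-HSCs without any 1 of the 6 libraries. The other eIF2B genes, Eif2b1, Eif2b2 and Eif2b4, had log2 changes between -0.24 and -0.13 in LT-HSCs and between -0.17 and -0.05 in ST-HSCs, none of them called. With the replicate number as a block, Eif2b4 was called lower in LT-HSCs as well. Eif2d and Eif2a, which encode factors that can deliver initiator tRNA without eIF2, were not called. Eif2d had 78.8, 86.5 and 75.9 CPM in the LT NR libraries, against 89.7, 89.2 and 87.2 CPM in the LT control libraries. Among ST-HSCs it had 95.9, 83.4 and 81.8 CPM in the ST NR libraries, against 91.6, 87.0 and 83.5 CPM in the ST control libraries. The Eif2d groups were separate by a small gap in LT-HSCs and overlapped in ST-HSCs, with log2 changes of -0.14 ± 0.08 (SE, adjusted p = 0.329) and -0.01 ± 0.08 (SE, adjusted p = 0.994) (edgeR). Eif2a lay at -0.13 ± 0.06 (SE, adjusted p = 0.292) in LT-HSCs and at -0.12 ± 0.06 (SE, adjusted p = 0.281) in ST-HSCs.

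**Figure D3:**
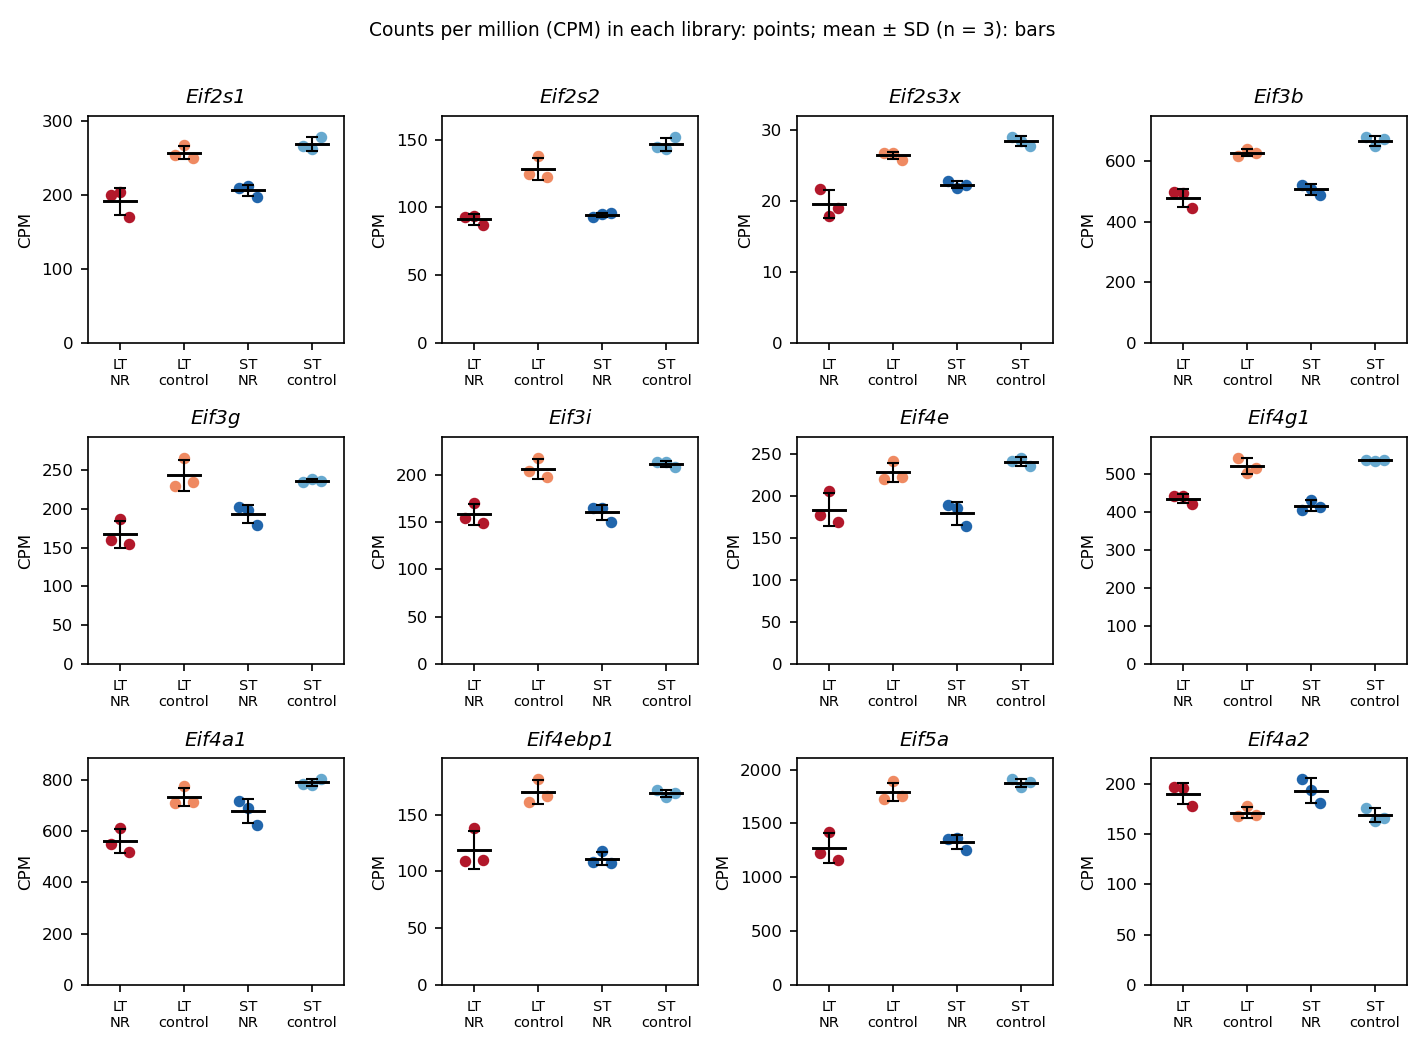
CPM (y axis, from 0) of 12 members in each library (points) with the mean ± SD of the 3 libraries of a group (bars). In 11 panels the NR libraries of a cell type lie below its control libraries, and for Eif4a2 they lie above.

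Of 13 tested eIF3 genes, 9 fell in LT-HSCs (median log2 change -0.29) and 8 in ST-HSCs (median -0.25). The called genes included the large core subunits Eif3a, Eif3b and Eif3c, Eif3e, Eif3k and Eif3l, and the small Eif3g and Eif3i, while Eif3d, Eif3f, Eif3h and Eif3j1 were called in neither cell type.

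Eif3b, a core subunit that binds Eif3g and Eif3i (ENSMUSG00000056076, GRCm38 chr5:140419328-140443360, plus strand), had 497, 493 and 446 CPM in the LT NR libraries, against 618, 641 and 626 CPM in the LT control libraries. In ST-HSCs it had 523, 509.6 and 488 CPM in the ST NR libraries, against 681, 649 and 673 CPM in the ST control libraries. No NR library reached a control library, and Eif3b fell by 0.39 ± 0.05 (SE, adjusted p = 0.000874) in LT-HSCs and by 0.40 ± 0.05 (SE, adjusted p = 0.000321) in ST-HSCs (log2, edgeR). Eif3i, its partner in the mobile module of eIF3, had 154, 171 and 149.5 CPM in the LT NR libraries, against 204, 218 and 197.5 CPM in the LT control libraries. Its ST-HSC values were 165, 165 and 151 CPM in the ST NR libraries, against 213, 214 and 208 CPM in the ST control libraries. The groups lay apart in both cell types, with log2 changes of -0.38 ± 0.07 (SE, adjusted p = 0.00292) and -0.40 ± 0.07 (SE, adjusted p = 0.0011) (edgeR). Eif3g, the other gene of that module, had 160, 187 and 154 CPM in the LT NR libraries, against 229, 266 and 234 CPM in the LT control libraries. In ST-HSCs Eif3g had 202, 198 and 179.5 CPM in the ST NR libraries, against 235, 239 and 235 CPM in the ST control libraries. The NR and control values of Eif3g did not overlap in either cell type. It fell by 0.54 ± 0.08 (SE, adjusted p = 0.00148) in LT-HSCs, the largest fall of any member there, and by 0.29 ± 0.08 (SE, adjusted p = 0.0261) in ST-HSCs (log2, edgeR). The ST-HSC call of Eif3g was lost without the third ST NR library and without each of the ST control libraries.

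The largest subunit gene, Eif3a, had 334, 325 and 277 CPM in the LT NR libraries, against 398, 409.5 and 362 CPM in the LT control libraries. In ST-HSCs the counts were 364, 347.5 and 317 CPM in the ST NR libraries, against 438, 426 and 430.1 CPM in the ST control libraries. These did not overlap, and the log2 changes were -0.32 ± 0.08 (SE, adjusted p = 0.018) and -0.33 ± 0.08 (SE, adjusted p = 0.00946) (edgeR), although the call was lost without the second or the third LT NR library, the first or second LT control library, or the third ST NR library. Eif3c, which binds eIF1 and eIF5, had 337, 327 and 310.3 CPM in the LT NR libraries, against 389.9, 406 and 394 CPM in the LT control libraries. Its values in ST-HSCs were 338, 340.2 and 328.5 CPM in the ST NR libraries, against 408, 408 and 429 CPM in the ST control libraries. Every NR value of Eif3c lay below every control value of its cell type. It fell by 0.29 ± 0.05 (SE, adjusted p = 0.00301) in LT-HSCs, where the call was lost without the second LT NR library, and by 0.31 ± 0.05 (SE, adjusted p = 0.000995) in ST-HSCs (log2, edgeR), and both calls were lost without a filter on low counts. Eif3e had 198, 223 and 194 CPM in the LT NR libraries, against 254, 263 and 234 CPM in the LT control libraries. In ST-HSCs Eif3e had 217, 225 and 201.5 CPM in the ST NR libraries, against 261, 261.5 and 256 CPM in the ST control libraries. Its groups did not overlap and its log2 changes were -0.29 ± 0.07 (SE, adjusted p = 0.0171) and -0.28 ± 0.07 (SE, adjusted p = 0.013) (edgeR), with the call lost without the first or the third LT NR, the first or second LT control, or the third ST NR library.

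Eif3h had 143, 153 and 131 CPM in the LT NR libraries, against 159, 166 and 153 CPM in the LT control libraries. Among ST-HSCs it had 163, 164 and 142 CPM in the ST NR libraries, against 172.5, 167 and 162 CPM in the ST control libraries. The ranges overlapped in both cell types, and the log2 changes of -0.16 ± 0.07 (SE, adjusted p = 0.229) and -0.10 ± 0.07 (SE, adjusted p = 0.492) were not called (edgeR). Eif3k fell by 0.29 ± 0.08 (SE, adjusted p = 0.0353) in LT-HSCs and by 0.25 ± 0.08 (SE, adjusted p = 0.0478) in ST-HSCs, and Eif3l by 0.29 ± 0.06 (SE, adjusted p = 0.00958) and 0.23 ± 0.06 (SE, adjusted p = 0.0202) (log2, edgeR). The Eif3k call was lost without the first or the third LT NR, the second or the third LT control, the first or the third ST NR or any ST control library, and the Eif3l call without the first LT NR, the first or the third ST NR, or the first or the third ST control library. Eif3m fell by 0.31 ± 0.07 (SE, adjusted p = 0.0158) in LT-HSCs, a call lost without any 1 of the LT NR libraries or the second LT control library, and stood at -0.21 ± 0.07 (SE, adjusted p = 0.0649) in ST-HSCs (edgeR). Eif3d shares 43.3% of its exon length with a gene on the other strand, Eif3j1 shares up to 19.0% with another gene, and since the strand setting of the counting is not given in the sources used here, their counts are uncertain. Reads of Eif3j1 may also be split with its near copy Eif3j2, which had 6 to 10 counts per library.

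Levels of the eIF3 genes could be set side by side per length, as CPM per kilobase of the principal transcript. In LT NR libraries Eif3k had 178 ± 17.7, Eif3b 162.5 ± 9.72 and Eif3g 152 ± 16.1 CPM per kb, while Eif3a had 60.9 ± 6.05 and Eif3f 49.6 ± 2.74 (mean ± SD, n = 3 each). Eif3j1, which encodes a loosely bound subunit, had 3.76 ± 0.476 CPM per kb in LT NR and 4.24 ± 0.225 in LT control libraries. The libraries of the first 3 overlapped, so their order is not settled, while those of Eif3a lay above those of Eif3f. The order also rests on the transcript length chosen.

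**Figure D4:**
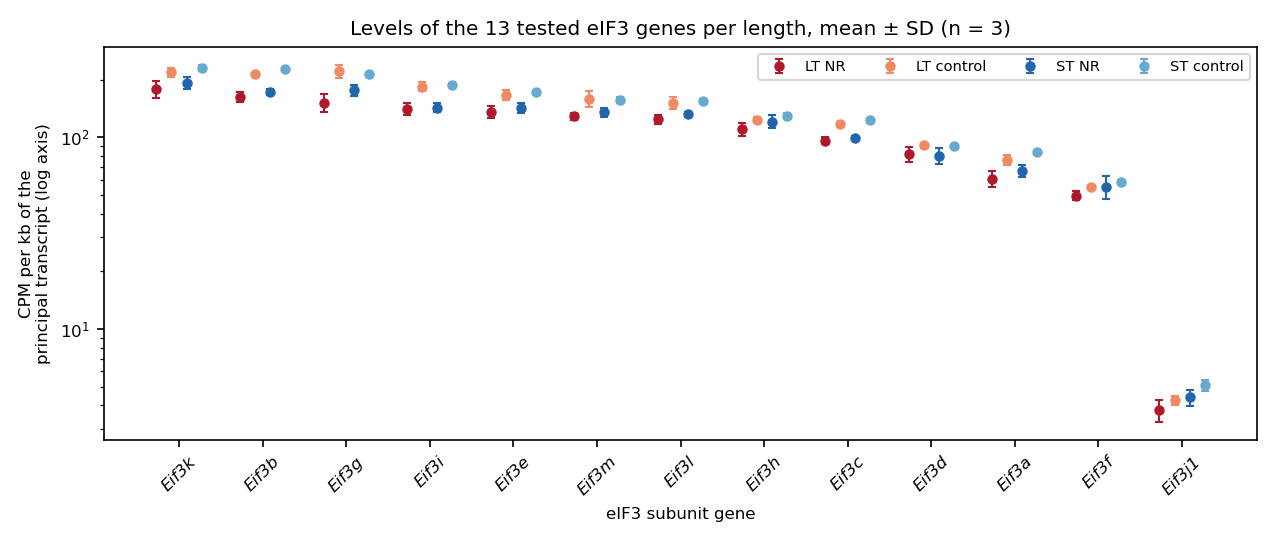
Mean ± SD (n = 3 libraries) of CPM per kilobase (y axis, log scale) of the 13 tested eIF3 genes (x axis) in the 4 groups. Eif3j1 lies far below the other 12 genes, and the NR means lie below the control means of their cell type.

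Of 14 eIF4 genes tested, 7 fell in LT-HSCs (median log2 change -0.24) and 7 in ST-HSCs (median -0.22). The cap-binding protein gene Eif4e, its repressor gene Eif4ebp1, the scaffold genes Eif4g1 and Eif4g3, the helicase gene Eif4a1 and the helicase cofactor gene Eif4h fell in both cell types, while for Eif4a2 every NR library lay above every control library of its cell type.

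Eif4e had 177, 206 and 168 CPM in the LT NR libraries, against 219.6, 241 and 223 CPM in the LT control libraries. In ST-HSCs Eif4e had 189, 186 and 164 CPM in the ST NR libraries, against 242, 245.5 and 235 CPM in the ST control libraries. The groups lay apart, and it fell by 0.31 ± 0.08 (SE, adjusted p = 0.0249) in LT-HSCs and by 0.42 ± 0.08 (SE, adjusted p = 0.00268) in ST-HSCs (log2, edgeR). The LT-HSC call was lost without the first or the third LT NR or the second or the third LT control library. Eif4e2, the gene of a cap-binding homologue that does not bind eIF4G well and serves as a repressor, had 111, 138 and 105 CPM in the LT NR libraries, against 116, 136 and 124.5 CPM in the LT control libraries. Its ST-HSC values were 115, 115 and 99.2 CPM in the ST NR libraries, against 124, 115 and 120.4 CPM in the ST control libraries. These overlapped in both cell types, and the changes of -0.09 ± 0.10 (SE, adjusted p = 0.704) and -0.13 ± 0.10 (SE, adjusted p = 0.538) were not called (edgeR). Eif4e3, another gene of the cap-binding family, had 21.8, 23.1 and 18.6 CPM in the LT NR libraries, against 22.6, 25.8 and 26.4 CPM in the LT control libraries. In ST-HSCs there were 21.8, 20.1 and 20.1 CPM in the ST NR libraries, against 23.0, 18.7 and 22.3 CPM in the ST control libraries. The groups overlapped, with log2 changes of -0.23 ± 0.11 (SE, adjusted p = 0.247) and -0.05 ± 0.11 (SE, adjusted p = 0.928) (edgeR), and 14.8% of its exon length is shared with another annotated gene on the same strand.

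Eif4ebp1 encodes 4E-BP1, which holds eIF4E off the scaffold until mTORC1 phosphorylates it. Its counts were 109, 138 and 109.7 CPM in the LT NR libraries, against 161, 182 and 167 CPM in the LT control libraries. In ST-HSCs they were 108, 118 and 107 CPM in the ST NR libraries, against 172, 166 and 169 CPM in the ST control libraries. No NR library overlapped a control library, and Eif4ebp1 fell by 0.51 ± 0.09 (SE, adjusted p = 0.00292) in LT-HSCs and by 0.60 ± 0.09 (SE, adjusted p = 0.000497) in ST-HSCs (log2, edgeR). Its homologue Eif4ebp2 had 30.3, 36.3 and 27.2 CPM in the LT NR libraries, against 32.0, 42.0 and 37.8 CPM in the LT control libraries. In ST-HSCs Eif4ebp2 had 31.9, 43.4 and 29.0 CPM in the ST NR libraries, against 37.6, 38.7 and 34.9 CPM in the ST control libraries. Those ranges overlapped widely, with uncalled changes of -0.25 ± 0.15 (SE, adjusted p = 0.397) and -0.09 ± 0.15 (SE, adjusted p = 0.865) (edgeR). Eif4ebp3 had 0 to 12 counts per library and was not tested, and 67.3% of its exon length is shared with another gene. Eif4enif1, the gene of the protein that carries eIF4E into the nucleus, had log2 changes of -0.05 ± 0.07 (SE, adjusted p = 0.76) and -0.14 ± 0.07 (SE, adjusted p = 0.203) (edgeR).

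The scaffold gene Eif4g1 had 444, 443 and 421 CPM in the LT NR libraries, against 543, 502 and 516 CPM in the LT control libraries. In ST-HSCs Eif4g1 had 405, 432.5 and 415 CPM in the ST NR libraries, against 538, 536 and 537 CPM in the ST control libraries. The groups did not overlap, and Eif4g1 fell by 0.26 ± 0.05 (SE, adjusted p = 0.00579) in LT-HSCs, a call lost without the second LT NR library, and by 0.36 ± 0.05 (SE, adjusted p = 0.000338) in ST-HSCs (log2, edgeR). Eif4g3, which encodes the related scaffold eIF4GII, had 153, 146 and 136 CPM in the LT NR libraries, against 167, 166 and 175 CPM in the LT control libraries. In ST-HSCs the values were 137, 149 and 152 CPM in the ST NR libraries, against 185, 182 and 182 CPM in the ST control libraries. Neither cell type showed an overlap of NR and control values of Eif4g3. It fell by 0.22 ± 0.06 (SE, adjusted p = 0.0347) in LT-HSCs and by 0.32 ± 0.06 (SE, adjusted p = 0.00279) in ST-HSCs (log2, edgeR), and the LT-HSC call was lost without the second or the third LT NR or any LT control library, and the ST-HSC call without a filter on low counts. Eif4g2, whose product lacks the eIF4E binding region and serves cap-independent initiation, had 1563, 1375 and 1293 CPM in the LT NR libraries, against 1658, 1577 and 1510 CPM in the LT control libraries. In ST-HSCs Eif4g2 had 1531, 1506 and 1503 CPM in the ST NR libraries, against 1823, 1793 and 1809 CPM in the ST control libraries. The groups overlapped in LT-HSCs, where the change of -0.17 ± 0.06 (SE, adjusted p = 0.128) was not called, and lay apart in ST-HSCs, where Eif4g2 fell by 0.26 ± 0.06 (SE, adjusted p = 0.012) (log2, edgeR), a call lost without the third ST NR library. Eif4b, a cofactor of the helicase, had 323.5, 311 and 295 CPM in the LT NR libraries, against 347, 321 and 323.5 CPM in the LT control libraries. In ST-HSCs it had 357, 342 and 315 CPM in the ST NR libraries, against 385, 366.5 and 359 CPM in the ST control libraries. The groups overlapped in LT-HSCs and lay apart in ST-HSCs, and the changes of -0.09 ± 0.06 (SE, adjusted p = 0.451) and -0.13 ± 0.06 (SE, adjusted p = 0.189) were not called (edgeR). Eif4h, the other cofactor gene, fell by 0.27 ± 0.07 (SE, adjusted p = 0.0278) in LT-HSCs and by 0.26 ± 0.07 (SE, adjusted p = 0.0182) in ST-HSCs (log2, edgeR), calls lost without any 1 of the 6 LT libraries and without the first or the third ST NR or the first ST control library.

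In the averaged comparison the helicase gene Eif4a1 (ENSMUSG00000059796, GRCm38 chr11:69666936-69672423, minus strand) fell and its close relative Eif4a2 (ENSMUSG00000022884, GRCm38 chr16:23107444-23114136, plus strand) rose. Eif4a1 had 548, 613 and 520.3 CPM in the LT NR libraries, against 711, 775 and 713.5 CPM in the LT control libraries. In ST-HSCs Eif4a1 had 719, 689.6 and 625.5 CPM in the ST NR libraries, against 786, 779 and 805 CPM in the ST control libraries. Its groups did not overlap in either cell type, and it fell by 0.39 ± 0.07 (SE, adjusted p = 0.00374) in LT-HSCs and by 0.22 ± 0.07 (SE, adjusted p = 0.0455) in ST-HSCs (log2, edgeR). The ST-HSC call was lost without the second or the third ST NR library or any 1 of the ST control libraries. Eif4a2 had 197, 196 and 178 CPM in the LT NR libraries, against 168, 177.5 and 169 CPM in the LT control libraries. In ST-HSCs Eif4a2 had 205, 194 and 180.4 CPM in the ST NR libraries, against 176, 163 and 166 CPM in the ST control libraries. Every NR library lay above every control library of its cell type, by a narrow gap in LT-HSCs, against 8.57% and 11.9% of all tested genes. The log2 changes of Eif4a2 were 0.15 ± 0.07 (SE, adjusted p = 0.192) and 0.20 ± 0.07 (SE, adjusted p = 0.0561), each short of the threshold, and averaged over both cell types Eif4a2 rose by 0.17 ± 0.05 (SE, adjusted p = 0.014) (edgeR). Eif4a3, which belongs to the exon junction complex rather than to the cap complex, had 238, 266 and 219.8 CPM in the LT NR libraries, against 290, 315 and 294 CPM in the LT control libraries. In ST-HSCs there were 277, 279.6 and 246 CPM in the ST NR libraries, against 319, 295 and 315 CPM in the ST control libraries. The groups did not overlap, but Eif4a3 passed the test in LT-HSCs alone, where it fell by 0.31 ± 0.08 (SE, adjusted p = 0.019), against -0.21 ± 0.08 (SE, adjusted p = 0.076) in ST-HSCs (log2, edgeR). The LT-HSC call was lost without the first or the third LT NR or the second LT control library, and the difference between the cell types was not called, at -0.10 ± 0.11 (SE, adjusted p = 1) (edgeR).

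Ratios of counts within a library do not depend on how libraries are scaled. The Eif4a1 to Eif4a2 ratio was 2.78, 3.13 and 2.92 in the LT NR libraries, against 4.24, 4.36 and 4.22 in the LT control libraries. In ST-HSCs it was 3.51, 3.55 and 3.47 in the ST NR libraries, against 4.45, 4.77 and 4.84 in the ST control libraries. The NR and control ranges were apart in both cell types, with means of 2.94 ± 0.17 in LT NR and 4.28 ± 0.077 in LT control libraries, and of 3.51 ± 0.041 in ST NR and 4.69 ± 0.21 in ST control libraries (SD, n = 3 each). Since Eif4a1 lay below and Eif4a2 above the control libraries in each cell type, this separation follows from their levels and adds no evidence. Per Eif4e count there was also less Eif4ebp1 with NR, at 0.619, 0.672 and 0.651 in the LT NR libraries, against 0.735, 0.753 and 0.749 in the LT control libraries. The Eif4ebp1 to Eif4e ratio in ST-HSCs was 0.575, 0.634 and 0.654 in the ST NR libraries, against 0.711, 0.675 and 0.719 in the ST control libraries. These did not overlap either. The Eif4ebp1 to Eif4ebp2 ratio averaged 3.82 ± 0.21 in LT NR and 4.60 ± 0.39 in LT control libraries, and 3.27 ± 0.50 in ST NR and 4.57 ± 0.28 in ST control libraries, with no overlap. The Eif4e to Eif4e2 ratio averaged 1.56 ± 0.063 in LT NR and 1.82 ± 0.063 in LT control libraries, and 1.64 ± 0.021 in ST NR and 2.01 ± 0.11 in ST control libraries, again with no overlap. The scaffold ratio Eif4g1 to Eif4g3 averaged 3.02 ± 0.097 in LT NR and 3.08 ± 0.16 in LT control libraries, and 2.86 ± 0.12 in ST NR and 2.94 ± 0.023 in ST control libraries, and overlapped in both cell types. These ratios are descriptions with no test, since 3 libraries against 3 cannot reach 0.05 in a two-sided exact permutation test. How often ratios of other gene pairs lie apart is not given here.

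**Figure D5:**
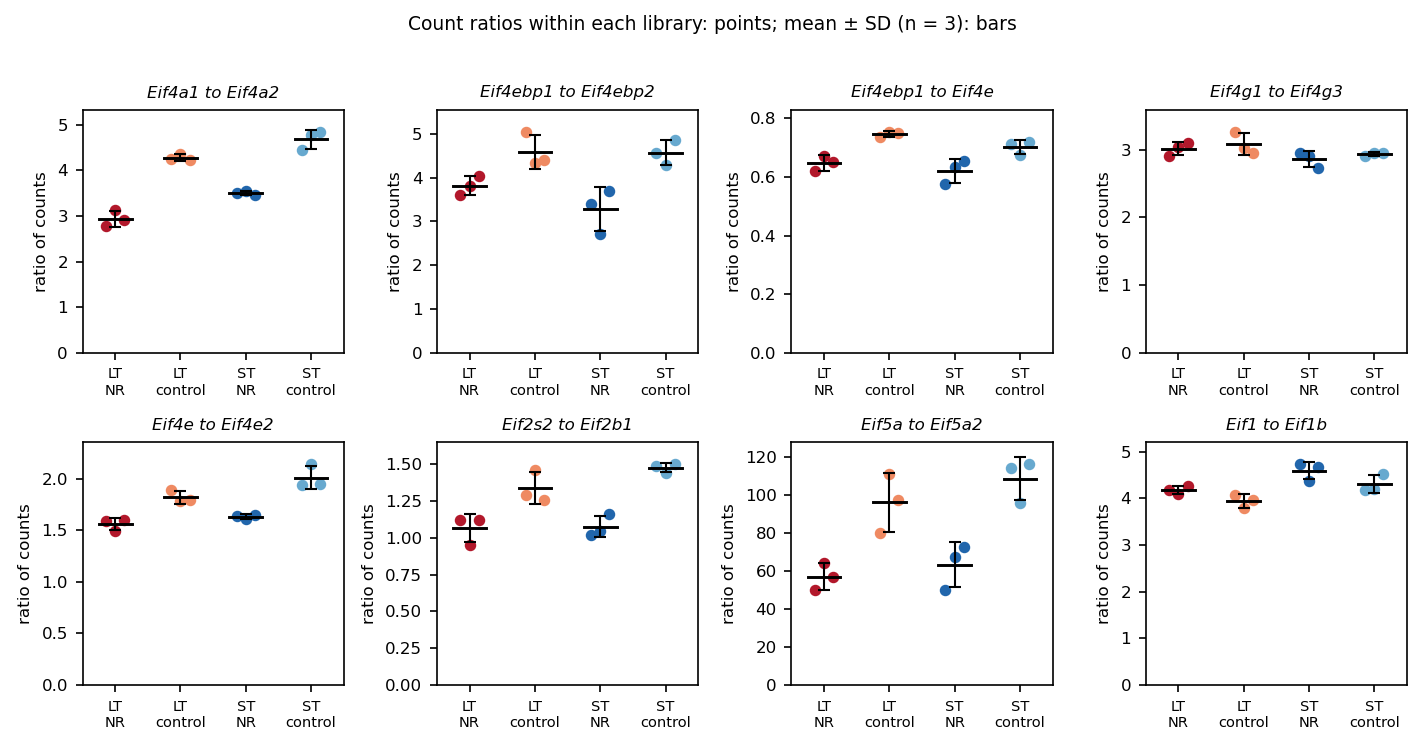
Ratio of counts of 8 gene pairs (y axes, from 0) in each library (points) with the mean ± SD of the 3 libraries of a group (bars). The NR libraries lie below the control libraries in both cell types in 6 panels, overlap them for Eif4g1 to Eif4g3, and for Eif1 to Eif1b lie above in LT-HSCs and overlap in ST-HSCs.

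Promoter windows, 250 bases before to 50 bases after the start of a gene, were given by RefSeq (GRCm38.p6) for 39 members. The 4 windows printed here belong to the helicase genes that moved in opposite directions, to the scaffold gene Eif4g1 and to Eif2s2, the member with the smallest p. Each is written 5′ to 3′ along the gene, with the E-box CACGTG and the CCAAT box in capitals, the first being the core of sites that MYC and related factors bind. They lie at chr11:69672374-69672673 on the minus strand (Eif4a1), chr16:23107218-23107517 on the plus strand (Eif4a2), chr16:20672477-20672776 on the plus strand (Eif4g1) and chr2:154892857-154893156 on the minus strand (Eif2s2). The Eif4g1 window lies at a start inside the GENCODE gene, which begins at chr16:20668313.
Eif4a1: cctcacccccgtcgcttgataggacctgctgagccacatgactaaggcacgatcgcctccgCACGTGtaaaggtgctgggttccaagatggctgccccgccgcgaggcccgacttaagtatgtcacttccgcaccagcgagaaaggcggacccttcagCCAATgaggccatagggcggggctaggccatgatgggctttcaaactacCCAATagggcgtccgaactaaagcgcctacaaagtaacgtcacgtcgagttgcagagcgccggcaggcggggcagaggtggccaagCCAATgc
Eif4a2: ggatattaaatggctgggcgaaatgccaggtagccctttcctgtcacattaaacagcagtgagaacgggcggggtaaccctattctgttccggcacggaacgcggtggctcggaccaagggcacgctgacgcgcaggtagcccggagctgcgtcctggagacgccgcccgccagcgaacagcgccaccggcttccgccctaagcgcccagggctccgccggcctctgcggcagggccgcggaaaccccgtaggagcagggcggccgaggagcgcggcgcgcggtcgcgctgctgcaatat
Eif4g1: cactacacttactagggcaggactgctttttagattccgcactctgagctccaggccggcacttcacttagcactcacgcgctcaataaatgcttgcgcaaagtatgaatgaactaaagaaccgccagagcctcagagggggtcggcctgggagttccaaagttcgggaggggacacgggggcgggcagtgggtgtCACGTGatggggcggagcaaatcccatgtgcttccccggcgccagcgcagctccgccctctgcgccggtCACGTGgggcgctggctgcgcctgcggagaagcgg
Eif2s2: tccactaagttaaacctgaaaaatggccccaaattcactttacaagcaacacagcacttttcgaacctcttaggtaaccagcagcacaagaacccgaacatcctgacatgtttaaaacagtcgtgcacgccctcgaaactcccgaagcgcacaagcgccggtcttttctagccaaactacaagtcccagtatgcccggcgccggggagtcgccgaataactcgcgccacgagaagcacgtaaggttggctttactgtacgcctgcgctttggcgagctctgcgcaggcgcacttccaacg

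Counted from the start, the Eif4a1 window holds the E-box at -189 and CCAAT at -92, -43 and 44, and the Eif4g1 window holds an E-box at -54 and at 16. Neither motif is in the windows of Eif4a2 and Eif2s2. Over both strands, CACGTG was in the windows of 8 of 39 members (Eif1b, Eif3a, Eif3f, Eif3k, Eif4a1, Eif4g1, Eif4h and Eif5a2), against 8.05% of 16526 genes with a window. It was in 5 of the 19 members with a window that fell in the averaged comparison and in 3 of the 18 that were tested and not called. CCAAT was in 10 of 39 member windows, against 38.6% of all windows, and TGACNNNGC, the core of the antioxidant response element, in 7 of 39, against 13.3%. By call, CCAAT was in 4 of the 19 that fell and 6 of the 18 not called, and TGACNNNGC in 1 and 5. A link of any motif to the calls was not tested. The median GC content was 62.3% over member windows and 57.0% over all windows. TGATGNAAT, part of the composite site of ATF4 and CEBP factors, was in 0 of 39 and in 0.799% of all windows. A match says only that these letters are present, and the motifs do not overlap each other in the windows shown.

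Among the eIF1 genes Eif1ax fell in both cell types and the others were not called in either. Eif1ax, on the X chromosome, encodes eIF1A, which helps the small subunit scan and pick the start codon. It had 185, 204 and 164 CPM in the LT NR libraries, against 239, 254 and 237 CPM in the LT control libraries. In ST-HSCs Eif1ax had 171, 191 and 166 CPM in the ST NR libraries, against 257, 248 and 257 CPM in the ST control libraries. The groups lay far apart, and it fell by 0.40 ± 0.08 (SE, adjusted p = 0.00629) in LT-HSCs and by 0.53 ± 0.08 (SE, adjusted p = 0.00059) in ST-HSCs (log2, edgeR). Eif1a, a second eIF1A gene, had 179.7, 171 and 164 CPM in the LT NR libraries, against 198, 212 and 188 CPM in the LT control libraries. Among ST-HSCs it had 206, 182 and 183.5 CPM in the ST NR libraries, against 209, 219 and 207 CPM in the ST control libraries. Its groups did not overlap, its changes of -0.22 ± 0.07 (SE, adjusted p = 0.0598) and -0.15 ± 0.07 (SE, adjusted p = 0.164) did not pass the test in either cell type, and averaged over both it was called, at -0.18 ± 0.05 (SE, adjusted p = 0.0119) (edgeR). With the replicate number as a block Eif1a was called in LT-HSCs, at -0.22 ± 0.063 (SE, adjusted p = 0.0319, edgeR). The averaged call was lost without the first or second LT NR or the third ST NR library.

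Eif1, which keeps the scanning ribosome from starting at a wrong codon, had 359, 415 and 361 CPM in the LT NR libraries, against 356, 379 and 361 CPM in the LT control libraries. In ST-HSCs Eif1 had 383, 405 and 350.2 CPM in the ST NR libraries, against 384, 381 and 387 CPM in the ST control libraries. These ranges overlapped, with changes of 0.05 ± 0.07 (SE, adjusted p = 0.749) and -0.02 ± 0.07 (SE, adjusted p = 0.973) (edgeR). Eif1ad, which encodes a protein with an eIF1A domain, had 98.9, 117 and 91.8 CPM in the LT NR libraries, against 110.1, 115 and 114 CPM in the LT control libraries. In ST-HSCs the values were 116, 119 and 92.8 CPM in the ST NR libraries, against 116, 123 and 116 CPM in the ST control libraries. They overlapped, with changes of -0.14 ± 0.10 (SE, adjusted p = 0.501) and -0.12 ± 0.10 (SE, adjusted p = 0.566) (edgeR), and 15.3% of its exon length is shared with Banf1 on the other strand. The Eif1 to Eif1b ratio averaged 4.18 ± 0.085 in LT NR and 3.95 ± 0.14 in LT control libraries, without overlap, and 4.60 ± 0.19 in ST NR and 4.31 ± 0.19 in ST control libraries, with overlap. Eif1b shares 12.7% of its exon length with a gene on the other strand. The strand setting of the counting is not given in the sources used here, so this ratio is uncertain.

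In the eIF5 and eIF6 groups Eif5a and Eif6 fell in both cell types. Eif5a encodes the hypusine-bearing factor that helps ribosomes through difficult peptide bonds, in elongation more than in initiation. It had 1227, 1425 and 1157 CPM in the LT NR libraries, against 1730, 1891 and 1758 CPM in the LT control libraries. In ST-HSCs Eif5a had 1360, 1367 and 1250 CPM in the ST NR libraries, against 1916, 1841 and 1882 CPM in the ST control libraries. Every NR library lay below every control library, and Eif5a fell by 0.50 ± 0.07 (SE, adjusted p = 0.00103) in LT-HSCs and by 0.50 ± 0.07 (SE, adjusted p = 0.000389) in ST-HSCs (log2, edgeR). Its homologue Eif5a2 had 24.5, 22.2 and 20.4 CPM in the LT NR libraries, against 21.6, 17.1 and 18.1 CPM in the LT control libraries. In ST-HSCs Eif5a2 had 27.1, 20.4 and 17.2 CPM in the ST NR libraries, against 16.8, 19.3 and 16.2 CPM in the ST control libraries. Those groups overlapped in both cell types, and the positive changes of 0.24 ± 0.16 (SE, adjusted p = 0.439) and 0.31 ± 0.16 (SE, adjusted p = 0.231) were not called (edgeR). The Eif5a to Eif5a2 ratio averaged 57.0 ± 7.0 in LT NR and 95.96 ± 15.4 in LT control libraries, and 63.4 ± 11.8 in ST NR and 108.5 ± 11.3 in ST control libraries, with no overlap (SD, n = 3 each).

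Eif5, the activator of GTP hydrolysis by eIF2, had 333, 335.5 and 292 CPM in the LT NR libraries, against 345, 363 and 339 CPM in the LT control libraries. In ST-HSCs it had 377, 343 and 363 CPM in the ST NR libraries, against 402, 379 and 378.5 CPM in the ST control libraries. The groups were separate, but the changes of -0.12 ± 0.06 (SE, adjusted p = 0.294) and -0.10 ± 0.06 (SE, adjusted p = 0.386) were not called (edgeR). Eif5b, which joins the ribosomal subunits, had 77.6, 86.5 and 67.2 CPM in the LT NR libraries, against 85.4, 95.8 and 84.8 CPM in the LT control libraries. In ST-HSCs Eif5b had 90.2, 81.3 and 81.4 CPM in the ST NR libraries, against 95.9, 87.9 and 90.5 CPM in the ST control libraries. The groups overlapped in both cell types, and the changes of -0.20 ± 0.09 (SE, adjusted p = 0.216) and -0.12 ± 0.09 (SE, adjusted p = 0.511) were not called (edgeR), and 16.8% of its exon length is shared with Rev1 on the other strand. Eif6, whose product keeps the large ribosomal subunit from joining too early, had 144.5, 175 and 144 CPM in the LT NR libraries, against 180.1, 205 and 192.5 CPM in the LT control libraries. In ST-HSCs the values were 173, 169.9 and 154 CPM in the ST NR libraries, against 204, 206 and 199 CPM in the ST control libraries. The groups did not overlap, and Eif6 fell by 0.32 ± 0.08 (SE, adjusted p = 0.0266) in LT-HSCs and by 0.30 ± 0.08 (SE, adjusted p = 0.0247) in ST-HSCs (log2, edgeR). The Eif6 call was lost without the first or the third LT NR, the second or the third LT control, the third ST NR or any ST control library. Counts of Eif4a1, Eif5a, Eif3e and Eif2s3x may be split with near copies or pseudogenes of these genes.

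No member was called for a difference between the cell types in its response to NR, which does not show that the responses were equal. For the difference of the effects, LT-HSCs minus ST-HSCs, 0 of 47 members and 2 of 19830 genes (0.0101%) were called by edgeR, and 0 members and 136 genes (1.05% of those it tested) by DESeq2. Over all genes edgeR called 43 without a filter on low counts and 37 among genes with a mean of at least 5 CPM. The member with the smallest p was Eif3g, the only one with an unadjusted p under 0.05, at -0.25 ± 0.12 (SE, adjusted p = 0.825). Eif4a1 followed at -0.17 ± 0.10 (SE, adjusted p = 0.976) and Eif2s2 at 0.14 ± 0.09 (SE, adjusted p = 1) (log2, edgeR).

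Without NR, 35 of 47 members had a negative estimated difference, LT-HSCs over ST-HSCs, as did 57.8% of all tested genes. In control culture 0 members were called higher or lower by edgeR, against 3.51% of all tested genes higher and 1.5% lower, and 6 had an unadjusted p under 0.05, against 14.9% of all tested genes. The medians of eIF2, eIF3 and eIF4 were -0.06, -0.06 and -0.04, against -0.05 over all tested genes (log2, LT-HSCs over ST-HSCs). The members with the smallest p were Eif4g2 at -0.19 ± 0.06 (SE, adjusted p = 0.115), Eif2s2 at -0.19 ± 0.06 (SE, adjusted p = 0.12) and Eif4b at -0.16 ± 0.06 (SE, adjusted p = 0.191) (edgeR). For 15 members the 3 LT control libraries all lay below the 3 ST control libraries, against 12.4% of all tested genes. DESeq2 called 2 members lower in LT-HSCs, Eif2s2 and Eif4g2, a share near the 3.72% of the genes it tested. The fit with the unassigned share as a covariate called Eif3a, Eif4b and Eif4g2, against 2.79% of all tested genes.

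With NR, 1 member (2.13%) was lower in LT-HSCs than in ST-HSCs and 0 were higher, against 2.27% of all tested genes lower and 3.8% higher. The share called lower lies near that of all tested genes, so it is not read as a result about the members. That member was Eif4a1, at -0.28 ± 0.07 (SE, adjusted p = 0.0318) (edgeR), whose LT NR libraries at 548, 613 and 520.3 CPM lay below the ST NR libraries at 719, 689.6 and 625.5 CPM. Its call was lost without the first or the third LT NR or the first or second ST NR library. Eif5 followed at -0.17 ± 0.06 (SE, adjusted p = 0.159) and Eif3g at -0.21 ± 0.08 (SE, adjusted p = 0.188), neither called (edgeR). DESeq2 called Eif4a1, Eif2a, Eif3g and Eif5 lower, 4 members, a share near the 6.62% of the genes it tested. For 6 members the 3 LT NR libraries all lay below the 3 ST NR libraries, against 7.59% of all tested genes. The medians of eIF2, eIF3 and eIF4 were -0.11, -0.09 and -0.02, against 0.02 over all tested genes.

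Other genes of translation are given beside the shares of all tested genes, of which 7.58% were called lower and 2.38% higher in LT-HSCs, 11.1% and 5.82% in ST-HSCs, and 16.1% and 7.88% in the averaged comparison. Of 20 other initiation factors and helpers, 8 fell with NR in LT-HSCs, 10 did so in ST-HSCs and 13 in the averaged comparison, with 0 called higher. Pdcd4, which encodes an inhibitor of the eIF4A helicase, fell by 0.50 ± 0.08 (SE, adjusted p = 0.00177) in LT-HSCs and by 0.54 ± 0.08 (SE, adjusted p = 0.000459) in ST-HSCs, and Bzw2, which encodes a mimic of the eIF5 C-terminal domain, by 0.47 ± 0.06 (SE, adjusted p = 0.000803) and 0.41 ± 0.06 (SE, adjusted p = 0.000814) (log2, edgeR). Of 17 elongation factor genes, 5 fell and 1 rose in LT-HSCs, and 3 fell and 1 rose in ST-HSCs, where both shares lie near those of all tested genes. Eef1d, a subunit gene of the exchange factor of eEF1A, fell by 0.42 ± 0.09 (SE, adjusted p = 0.00792) and 0.40 ± 0.09 (SE, adjusted p = 0.0058), and Dhps, whose enzyme starts the hypusine modification of eIF5A, by 0.41 ± 0.10 (SE, adjusted p = 0.0206) and 0.35 ± 0.10 (SE, adjusted p = 0.0304) (log2, edgeR). Of 3 termination factor genes, Etf1 and Gspt1 fell in both cell types, Gspt1 by 0.45 ± 0.06 (SE, adjusted p = 0.000662) and 0.59 ± 0.06 (SE, adjusted p = 3.5e-05) (log2, edgeR).

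Of 13 tested kinase, phosphatase and partner genes that regulate eIF2 phosphorylation, 2 fell and 1 rose in LT-HSCs, against 7.58% of all tested genes called lower and 2.38% higher, and 4 fell and 0 rose in ST-HSCs, against 11.1% and 5.82%. Ppp1cb, a catalytic phosphatase subunit gene, fell by 0.24 ± 0.06 (SE, adjusted p = 0.0247) in LT-HSCs and by 0.35 ± 0.06 (SE, adjusted p = 0.00187) in ST-HSCs, and Impact, which encodes an inhibitor of GCN2 activation, rose by 0.28 ± 0.06 (SE, adjusted p = 0.0158) in LT-HSCs (log2, edgeR). Of 22 genes of mTORC1 and MNK signalling, 3 rose and 4 fell in LT-HSCs, and 5 rose and 3 fell in ST-HSCs, the share lower in ST-HSCs being near that of all tested genes. Sesn2, which encodes a leucine sensor that restrains mTORC1, averaged 78.4 CPM in LT NR and 47.8 in LT control libraries, and 106 in ST NR and 47.6 in ST control libraries, and rose by 0.71 ± 0.07 (SE, adjusted p = 0.000158) and 1.16 ± 0.08 (SE, adjusted p = 1.73e-06) (log2, edgeR). Ddit4l, the gene of another restraint on mTORC1, averaged 11.4 CPM in LT NR and 2.57 in LT control libraries, and 12.6 in ST NR and 0.844 in ST control libraries, and rose by 2.15 ± 0.20 (SE, adjusted p = 8.18e-05) and 3.90 ± 0.23 (SE, adjusted p = 9.21e-07) (log2, edgeR). Other genes of this list averaged less with NR. Deptor had 25.8 CPM in LT NR and 37.3 in LT control libraries, and 38.9 in ST NR and 44.9 in ST control libraries. In the same order Atf4 had 151, 195, 145 and 218 CPM and Myc 354, 479, 443 and 517. Tsc2 changed little, at 149, 143, 142 and 147 CPM.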

How the data were processed

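Gene counts were deposited by the authors for 12 libraries of sorted mouse HSCs, made with SMART-seq v4 and Nextera XT per the labels' protocols. The submitters' processing notes name STAR 2.5.0b, HTSeq 0.6.1 and FastQC 0.11.2. Build, annotation release and strand setting were not given in the sources used here. Between 8.69% and 28.6% of a library's reads fell in no annotated feature and 3.3% to 4.38% were ambiguous; these lines entered neither library sizes nor tests, and 0 sample columns were left unused. Groups were read from the titles.

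Counts were tested with edgeR 4.0.16 (R 4.3.3): TMM scaling, filterByExpr by group (count of at least 10, total of at least 15), and the quasi-likelihood test with the 4 groups in one fit over 12 libraries (8 residual degrees of freedom, common biological coefficient of variation 0.402), adjusted by Benjamini-Hochberg over 19830 genes. A gene was called at an adjusted p under 0.05. CPM is the count scaled by the TMM effective library size. Replicates of a group differed by more than sampling noise (chi-square per degree of freedom 5.46 to 32.3), so none was merged. The fit code was run on simulated counts with few changed genes in random directions, which does not test the scaling or the calls made here.

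Members and gene lists were chosen with earlier results of these data known. Values are given in full for genes of named roles and for the 5 called members of smallest p per direction, or the 3 of smallest p where fewer than 3 were called; other lists are given by counts with up to 3 genes. Names, coordinates and exon overlaps come from GENCODE M21 (GRCm38), and promoter windows from RefSeq.

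Alternatives were RLE and upper-quartile scaling, DESeq2 1.42.0, no low-count filter, a mean of at least 5 CPM, the compared groups alone, the replicate number as a block, the unassigned share as a covariate, and leaving out libraries. Samples with the same number had positive correlations of their deviations in every pair for LT NR with LT control (0.25 to 0.713) and LT NR with ST NR (0.151 to 0.839). This did not hold in every pair for ST NR with ST control (-0.0614 to 0.669) or LT control with ST control (-0.232 to 0.43).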

Additional observations from a re-analysis of the deposited data

How the results depend on the processing

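Of the members called lower with NR, 10 of 24 in LT-HSCs, 10 of 23 in ST-HSCs and 24 of 26 in the averaged comparison were called under every setting run, and 0 called members changed sign. The same shares over all called genes are not given here, so these counts do not rank the members against other genes. In LT-HSCs 11 were called lower without a low-count filter (46386 genes tested) and 11 without the 2 libraries with most unassigned reads, with 14 to 20 when 1 library was left out. Over all genes 944 of 46386, 877 of 19830 and 835 to 1082 of 19830 were called lower there, against 1503 in the main fit. In ST-HSCs the count was 15 under RLE scaling, 10 without a filter, 12 without the 2 libraries and 12 to 22 with 1 library left out, and averaged it was 24 to 28. For all genes the ST-HSC counts were 1552, 1321, 1229 and 1010 to 2130, against 2193 in the main fit. Averaged they were 2165 to 3156 with 1 library left out, against 3189. Called higher were 1 in LT-HSCs under upper-quartile scaling, DESeq2, the 5 CPM filter and the covariate (Eif4a2), and 1 in ST-HSCs under these and RLE scaling, no filter and the block, 2 without the 2 libraries (Eif4a2, Eif5a2), and 0 to 1 with 1 left out. Of all genes, 829 were called higher in LT-HSCs under upper-quartile scaling, 1137 by DESeq2, 1261 of 10475 under the 5 CPM filter and 693 with the covariate. In ST-HSCs the counts were 1753, 2049, 2003 and 1366 in the same order. RLE scaling called 1662 of 19830 genes higher in ST-HSCs, and the fit without the 2 libraries 1545. Without a filter 1455 were called higher there, with the block 1361, and with 1 library left out 833 to 1375. Averaged, 2 were called higher under both scalings, DESeq2, no filter, the block, the covariate and without the 2 libraries, 3 under the 5 CPM filter, and 1 to 2 with 1 left out. Over all genes the averaged comparison called 2216 of 19830 higher under RLE scaling and 2515 of 10475 under the 5 CPM filter. It called 2254 higher under upper-quartile scaling, 2574 by DESeq2, 1964 without a filter and 1850 with the covariate. Without the 2 libraries the count was 2051, and with 1 library left out it was 1273 to 1899. Between cell types in control culture, 2 were called lower by DESeq2 and under the 5 CPM filter, 1 with the block and 3 with the covariate. The counts over all genes were 537 of 14447, 505 of 10475, 436 of 19830 and 554 of 19830. With NR the count was 3 under upper-quartile scaling and the 5 CPM filter, 4 by DESeq2, 2 with the covariate, 0 without a filter and with the compared groups alone, and 0 to 1 with 1 left out. Of all genes, 765 of 19830 were called lower under upper-quartile scaling and 899 of 10475 under the 5 CPM filter. DESeq2 called 957 of 14447 lower and the covariate fit 700 of 19830. Without a filter the count was 435, with the compared groups alone 287, and with 1 library left out 306 to 520. The causes were not tested.

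The replicate block gave 26 lower in LT-HSCs, 25 lower and 1 higher in ST-HSCs, and 30 lower and 2 higher averaged. Over all genes it called 1898 lower in LT-HSCs, 2653 lower and 1361 higher in ST-HSCs, and 3551 lower and 1830 higher averaged. Besides Eif1a and Eif2b4 the block changed no member call in LT-HSCs. Whether the numbers pair the samples is not in the labels, and the correlations cannot settle it.

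The median of eIF2 in LT-HSCs was -0.194 without a filter, -0.199 at 5 CPM, -0.172 without the 2 libraries and -0.304 to -0.192 with 1 left out; that of eIF4 was -0.153 without the 2 libraries and -0.259 to -0.172 with 1 left out. In ST-HSCs the eIF2 median was -0.135 under RLE scaling and DESeq2, -0.0988 without a filter, -0.133 at 5 CPM, -0.0974 without the 2 libraries and -0.235 to -0.0974 with 1 left out. That of eIF3 was -0.177 under RLE scaling and DESeq2, -0.19 under upper-quartile scaling, -0.17 without a filter, -0.175 at 5 CPM, -0.141 without the 2 libraries and -0.308 to -0.141 with 1 left out. That of eIF4 was -0.14 under RLE scaling and DESeq2, -0.104 without a filter, -0.139 at 5 CPM, -0.101 without the 2 libraries and -0.249 to -0.101 with 1 left out.

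Uncalled changes that turned positive were Eif4e2 in LT-HSCs (0.00762 without the 2 libraries). In ST-HSCs Eif1, Eif2d and Eif4e3 were at 0.0586, 0.0709 and 0.0281 under RLE scaling, 0.0454, 0.0581 and 0.0164 under upper-quartile scaling, 0.0587, 0.0712 and 0.028 by DESeq2, 0.0568, 0.0688 and 0.0257 without a filter, 0.06, 0.073 and 0.0313 at 5 CPM and 0.112, 0.115 and 0.0476 without the 2 libraries. There Eif1ad, Eif3h, Eif4e2 and Eif4ebp2 were at 0.0598, 0.0412, 0.0164 and 0.0897. With 1 library left out the ranges were -0.0661 to 0.112 (Eif1), -0.183 to 0.0598 (Eif1ad), -0.0811 to 0.115 (Eif2d), -0.132 to 0.0412 (Eif3h), -0.162 to 0.0164 (Eif4e2), -0.134 to 0.0476 (Eif4e3) and -0.283 to 0.0897 (Eif4ebp2), each highest without the third ST NR library.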
